A study of Homo sapiens with 8 samples.

Results

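Splicing regulators decide which exons of a pre-mRNA are kept, and the mRNA levels of their genes were compared here in SH-SY5Y cells in which PRPF40B was edited. The genes were taken by symbol. They are the serine/arginine-rich splicing factors (SRSF), TRA2A and TRA2B, the heterogeneous nuclear ribonucleoproteins (HNRNP), the numbered RBM and SRRM genes, and the CELF, ELAVL, NOVA, RBFOX, PTBP, MBNL, KHDRBS, ESRP and QKI genes. The rule matched 112 of the 47591 entries of the deposited table and used no expression value. Of these, 104 averaged 10 normalized counts or more across the 8 libraries and were tested, and 95 had a mean of at least 100. The 8 that were not tested were KHDRBS2, RBM11 and RBM46, listed at 0 in every library, and RBFOX3, HNRNPCL2, HNRNPCL3, HNRNPCL4 and HNRNPKP3, which were below the minimum. The entry CPNE1 // RBM12 covers 2 overlapping genes that the table does not separate.

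SH-SY5Y is a human neuroblastoma line. Polyadenylated RNA was sequenced from 3 libraries of G2 cells, in which Cas9 was directed to PRPF40B by a guide RNA, 3 of SCR cells, which received a scrambled control guide, and 2 of WT cells, which were not edited. Edited cells were selected with puromycin and grown from single colonies, so for G2 the edit and the properties of one colony cannot be told apart. G2 and SCR were kept in puromycin and WT is not named among the lines that were, so a difference of WT from both may also go with the drug, and these cannot be told apart. The labels call the libraries biological replicates without naming separate cultures, so p-values measure the spread between these libraries. The measurements are of bulk RNA, in which fewer cells with a transcript and less transcript per cell cannot be told apart.

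SR proteins bind exonic enhancers through RNA recognition motifs and recruit the spliceosome with their arginine/serine-rich domains, whereas many hnRNPs bind silencers and oppose exon use. These proteins are made in nearly every cell, and many of them control the splicing and decay of their own mRNA. A smaller set of regulators is restricted to certain tissues. In neurons ELAVL2, ELAVL3, ELAVL4, NOVA1, NOVA2, several CELF proteins, PTBP2, SRRM3 and SRRM4 direct neuronal exon choice, while PTBP1 represses it in other cells. In muscle and mesenchymal cells MBNL1, MBNL2, QKI, RBM24 and RBM20 take a comparable part, and ESRP1 and ESRP2 do so in epithelia.

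The libraries held 59804395 to 81080747 recovered counts each. Of nonzero recovered counts up to 60, 67.1% to 71.5% in each library were multiples of 3. From this about 3 counts to a fragment are inferred, which was not checked otherwise. Within a line the highest library of a regulator with a mean of at least 100 was a median of 1.07 (G2) to 1.09 (SCR and WT) times the lowest. The largest such ratio was 2.54, for RBM24 in SCR. PRPF40B itself averaged 866 normalized counts in G2 (SD 44.5, n = 3), 1676 in SCR (SD 8.79, n = 3) and 1820 in WT (SD 215, n = 2). Of 17 tested markers of adrenergic neuroblastoma cells, 13 were called lower and 1, TBX2, higher in each of G2/SCR and G2/WT. The summed level of all 18 listed markers was 298169 to 303809 in G2, 417616 to 429160 in SCR and 393168 to 406018 in WT. STMN2, the most abundant of them, was not called and averaged 165517 in G2, 170244 in SCR and 116782 in WT. TH, a defining marker of that state, was low, with at most 26.5 normalized counts in a library and 0 in 2 of the G2 libraries. Of 15 tested mesenchymal markers, 14 were higher in G2 in each comparison. The summed level of all 18 listed was 289283 to 294859 in G2, 117796 to 125127 in SCR and 84298 to 95939 in WT. FN1, MEOX2 and TWIST2 from that list were listed at 0 in all G2 libraries. Ribosomal RNA took 4.96% and 4.75% of the normalized counts of the WT libraries and 0.384% to 0.587% of the others.

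A regulator was called when its fold change was at least 1.5 and its unadjusted p at most 0.05 (limma on log2(normalized count + 1), 18947 genes). In G2/SCR 8 of 104 were higher and 8 lower, beside 15.1% higher and 11.8% lower of all genes tested. In G2/WT 8 were higher and 15 lower, beside 17.7% and 12.2%. In SCR/WT, which sets the control lines against each other, 8 were higher and 2 lower, beside 10.7% and 5.63%. G2/SCR and G2/WT share the G2 libraries, and each value is given on its own below. With the p adjusted over all genes (Benjamini-Hochberg, limit 0.05) and no minimum fold, 24 were higher and 25 lower in G2/SCR, beside 25.7% and 23.4% of all genes. The counts were 15 and 56 in G2/WT, beside 27.2% and 25.4%, and 14 and 44 in SCR/WT, beside 17% and 18.3%. The share of regulators called in G2/SCR was thus near or below that of all genes, while in the adjusted test of G2/WT and SCR/WT more than the background share was lower. The log2 fold changes of the 104 had a median of 0.01 for G2/SCR, -0.23 for G2/WT and -0.17 in SCR/WT, against -0.01, 0.00 and 0.01 over all genes tested.

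The calls were unevenly spread over the families. Of 25 tested regulators of the tissue-specific families (CELF, ELAVL, NOVA, RBFOX, PTBP, MBNL, KHDRBS, ESRP and QKI), 6 were higher and 7 lower in G2/SCR. Of the 37 SR proteins and hnRNPs none was called in that comparison, of 35 RBM genes 2 were higher, and of 5 SRRM genes 1 was lower. In G2/WT the tissue-specific families had 5 higher and 4 lower, the SR proteins and hnRNPs 8 lower, the RBM genes 3 higher and 1 lower and the SRRM genes 2 lower. Over all genes tested 15.1% were higher and 11.8% lower in G2/SCR, and 17.7% and 12.2% in G2/WT. The SR proteins and hnRNPs lower in G2/WT were 21.6%, near the 21.4% of tested genes averaging 10000 normalized counts or more. In all, 30 regulators were called in at least 1 of the comparisons, 26 of them with a mean of at least 100.

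**Figure D1:**
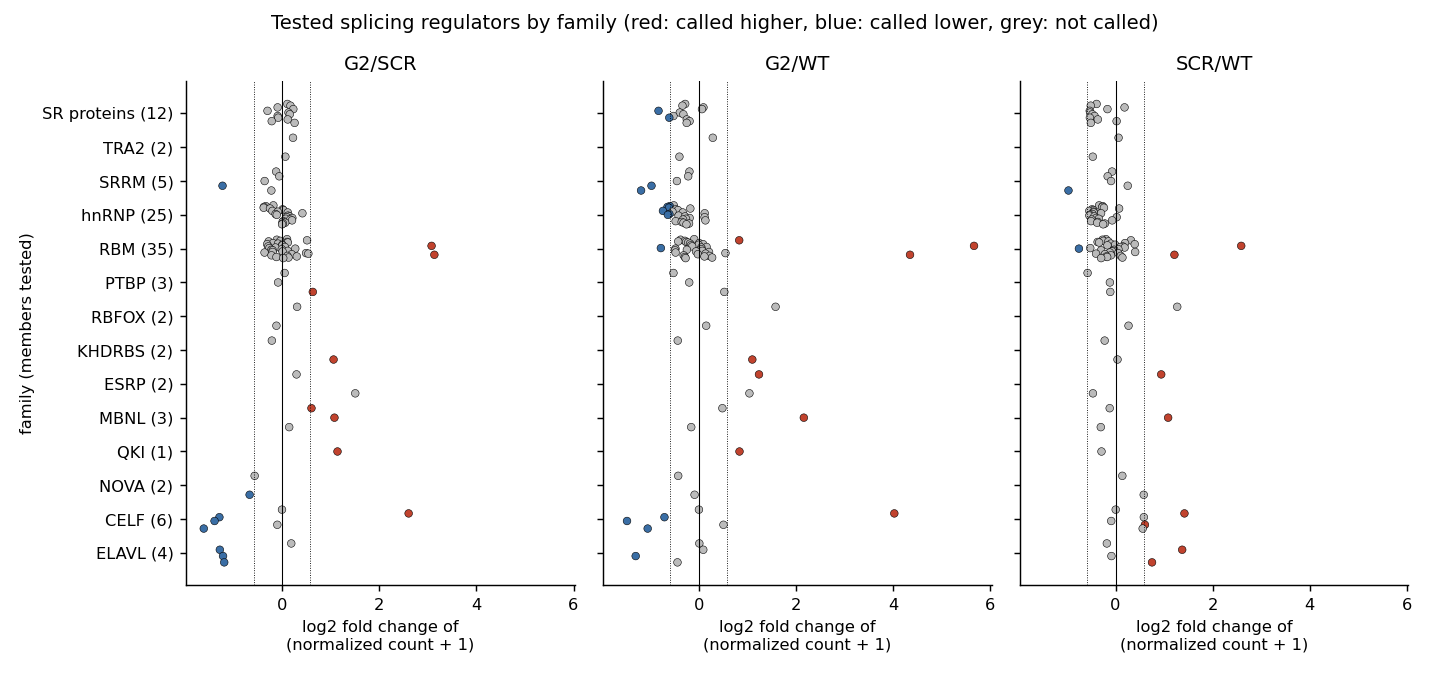
Log2 fold change of each tested regulator (points) by family in G2/SCR, G2/WT and SCR/WT, with dotted lines at a fold change of 1.5 and the number tested in brackets. The 25 hnRNPs and 12 SR proteins lie between the lines in G2/SCR and to the left of 0 with few exceptions in both WT comparisons, while CELF and ELAVL members lie far out on either side.

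Most neuron-enriched regulators of the set below were lower in G2 than in SCR. Of 13 tested (CELF3, CELF4, CELF5, CELF6, ELAVL2, ELAVL3, ELAVL4, NOVA1, NOVA2, SRRM3, SRRM4, PTBP2 and RBFOX1), 8 were called lower and none higher, and their median was -1.19 on the log2 scale. In G2/WT 5 were called lower and none higher (4 and 1 with libraries scaled to one total), with a median of -0.44, and in SCR/WT 3 were called higher and none lower, with a median of 0.56. KHDRBS3, which also acts in neurons, is not in the set and was called higher in G2/SCR (1.06) and G2/WT (1.10). CELF2 (2.61 and 4.02) and MBNL2 (1.08 and 2.16) are not in it either and were called higher in both. That none was higher thus holds only for the set as drawn. All 3 G2 libraries lay below the 5 others for 8 of the 13, beside 19.7% of all genes below and 22.8% above. All 3 SCR libraries lay above the 5 others for 7 of them, beside 11.7% of all genes above and 12.1% below. The difference between G2 and SCR therefore held a lower G2 for some of these genes and a higher SCR for others. For CELF3, CELF6 and ELAVL4, among others, it held both.

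The ELAVL proteins bind AU-rich and U-rich RNA. ELAVL1 is made in all tissues, and the other members mark neurons. ELAVL3 (chr19:11451326-11481046, hg38) had 2912, 2950 and 3333 normalized counts in the G2 libraries, 7458, 6860 and 6994 in SCR, and 7390 and 7663 in WT. The G2 libraries were the lowest and the control lines overlapped, and its log2 fold changes were -1.21 for G2/SCR (SE 0.06, adjusted p = 1.6e-08) and -1.30 for G2/WT (SE 0.07, adjusted p = 2.8e-08). ELAVL4 (chr1:50048014-50203783) had 4739, 4876 and 4781 in G2, 11060, 11364 and 10439 in SCR, and 6084 and 6948 in WT. It fell by 1.19 on the log2 scale in G2/SCR (SE 0.06), its value of -0.44 in G2/WT (SE 0.07, adjusted p = 0.00018) was under the fold minimum, and it was higher in SCR than in WT by 0.75 (SE 0.07). ELAVL2 (chr9:23690104-23850601) had 879, 819 and 752 in G2, 1928, 2028 and 1988 in SCR, and 724 and 807 in WT. Here the SCR libraries stood apart while G2 and WT overlapped, and its log2 differences were -1.28 in G2/SCR (SE 0.08), 0.09 in G2/WT (SE 0.09) and 1.37 in SCR/WT (SE 0.09). ELAVL1, the most abundant of the family, ranged only from 9844 to 11854 over the 8 libraries and was not called.

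Per kb of annotated exons the gap between ELAVL1 and the neuronal members differed between lines. In G2 the level of ELAVL1 was 1641 ± 59.8 (SD, n = 3) normalized counts per kb, above ELAVL3 at 644 ± 48.9, ELAVL4 at 573 ± 8.37 and ELAVL2 at 159 ± 12.3. In SCR ELAVL3 at 1492 ± 65.9 and ELAVL1 at 1438 ± 41.9 did not differ beyond their spread, and ELAVL4 stood at 1309 ± 56.4. In WT ELAVL1 stood at 1627 ± 11.7 and ELAVL3 at 1581 ± 40.5 (SD, n = 2), with ELAVL4 lower at 779 ± 73.0. The neuronal ELAVL2, ELAVL3 and ELAVL4 together made up 45.6% of the sum of the family per kb in G2 (SD 1.45, n = 3), 68.9% in SCR (SD 1.14, n = 3) and 60.6% in WT (SD 1.02, n = 2). No library of G2 reached the lowest control library, at 59.9%.

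CELF proteins bind UG-rich RNA and split into the widely made CELF1 and CELF2 and the mostly neural CELF3 to CELF6. CELF4 (chr18:37243040-37565827) had 910, 1012 and 1123 normalized counts in G2, 2652, 2702 and 2594 in SCR, and 2778 and 2855 in WT. It was 2.62-fold lower in G2 than in SCR and 2.78-fold lower than in WT (log2 fold changes -1.39, SE 0.08, adjusted p = 2.5e-08, and -1.48, SE 0.09, adjusted p = 4.3e-08), while the control lines differed by -0.09 (SE 0.09). CELF3 (chr1:151700058-151716814), the most abundant neural member, had 3320, 3563 and 4007 in G2, 9348, 8591 and 8620 in SCR, and 6407 and 5444 in WT. The lines did not overlap, with -1.29 in G2/SCR (SE 0.08), -0.71 in G2/WT (SE 0.09, adjusted p = 3.8e-05, and -0.52, under the fold minimum, with libraries scaled to one total) and 0.58 in SCR/WT (SE 0.09), which was just under the fold minimum. CELF6 (chr15:72284727-72321188) followed the same order at lower counts, with 84.7, 108 and 102 in G2, 297, 305 and 301 in SCR, and 191 and 217 in WT, and log2 fold changes of -1.61 (SE 0.14) and -1.05 (SE 0.15). CELF5 was not called in G2/SCR (-0.10, SE 0.12) and was higher in SCR than in WT (0.61, SE 0.13, adjusted p = 0.0037). That call was lost without SCR replicate 3 or WT replicate 2.

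CELF1 and CELF2 did not share this direction. CELF1 was flat, averaging 6173 normalized counts in G2 (SD 195, n = 3), 6177 in SCR (SD 225, n = 3) and 6169 in WT (SD 546, n = 2). CELF2 (chr10:10682455-11336675) had 656, 591 and 662 in G2, 99.0, 126 and 89.2 in SCR, and 29.8 and 48.6 in WT. It rose 6.09-fold over SCR (log2 fold change 2.61, SE 0.19, adjusted p = 3e-07) and 16.3-fold over WT (4.02, SE 0.21), and was also higher in SCR than in WT (1.42, SE 0.21). CELF1 thereby made up 40.8% ± 2.14 (SD, n = 3) of the CELF sum per kb in G2, against 23.6% ± 0.428 in SCR and 29.0% ± 3.08 (SD, n = 2) in WT. CELF2 made up 4.02% in G2, 0.383% in SCR and 0.177% in WT.

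SRRM4 drives the inclusion of neuronal microexons. Its gene (chr12:118981495-119163052) had 215, 224 and 291 normalized counts in G2, 606, 557 and 534 in SCR, and 426 and 528 in WT. All G2 libraries were below all controls, with -1.22 in G2/SCR (SE 0.13, adjusted p = 9.6e-06) and -0.97 in G2/WT (SE 0.15, adjusted p = 0.00016). NOVA2, which binds YCAY clusters in neuronal pre-mRNA, had 1089, 1114 and 1050 in G2, 1822, 1806 and 1550 in SCR, and 1038 and 1275 in WT. As for ELAVL2, SCR stood apart, with -0.67 in G2/SCR (SE 0.09), -0.09 in G2/WT (SE 0.10) and 0.58 in SCR/WT (SE 0.10). The NOVA2 entry overlaps that of CALM3, which had a mean of 20172 normalized counts against 1343 for NOVA2, and the strand setting of the counting is not given in the sources used here. The adrenergic marker sum was lower in G2 as well, and its part in the fall of the neuron-enriched regulators was not tested.

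**Figure D2:**
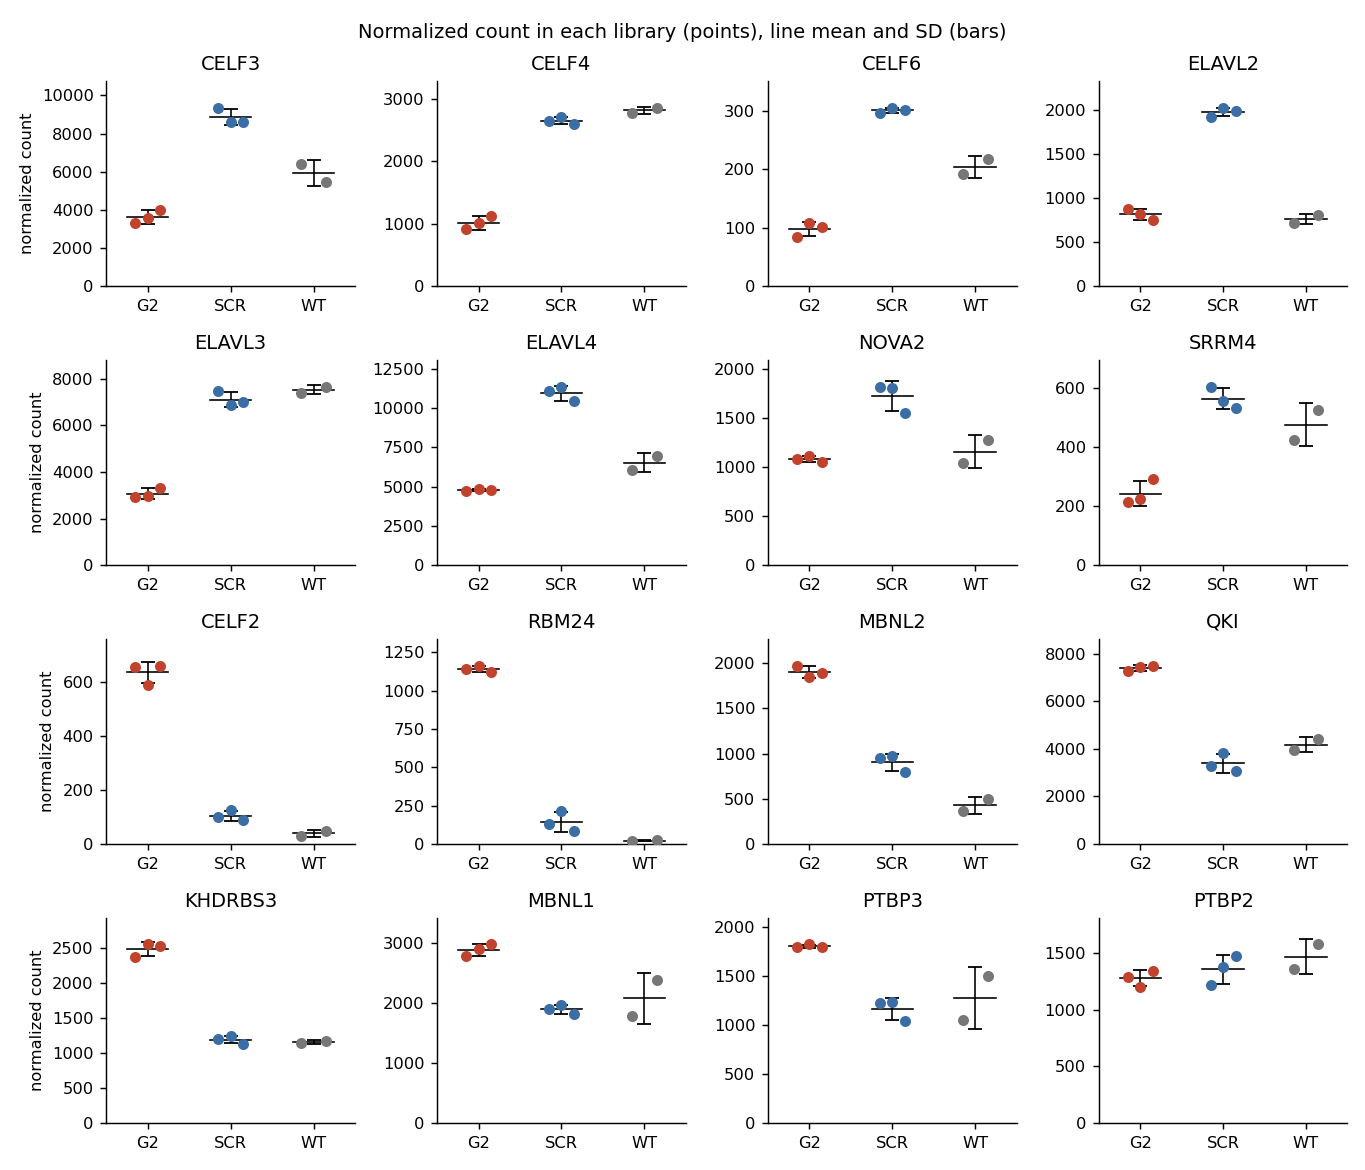
Normalized count (linear axis from 0) of 16 regulators in each library (points), with the mean and SD of each line (bars; n = 3 for G2 and SCR, n = 2 for WT). G2 libraries are the lowest for CELF3, CELF4, CELF6, ELAVL3, ELAVL4 and SRRM4 and the highest for CELF2, RBM24, MBNL2, QKI, KHDRBS3, MBNL1 and PTBP3, whereas ELAVL2 and NOVA2 stand apart in SCR and PTBP2 overlaps between G2 and SCR.

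MBNL proteins bind YGCY motifs and promote mature muscle and heart splice forms. MBNL2 (chr13:97141834-97394120) had 1975, 1846 and 1894 normalized counts in G2, 948, 971 and 794 in SCR, and 363 and 497 in WT. The lines were fully separated, 2.11-fold higher in G2 than in SCR (log2 fold change 1.08, SE 0.12, adjusted p = 8.7e-06) and 4.48-fold higher than in WT (2.16, SE 0.13, adjusted p = 5.3e-08), and SCR was 2.12-fold higher than WT (1.08, SE 0.13). MBNL1 had 2778, 2885 and 2969 in G2, 1895, 1964 and 1812 in SCR, and 1774 and 2375 in WT. It passed the fold minimum in G2/SCR only by little (0.61, SE 0.09) and fell short of it when G2 replicate 3 or SCR replicate 3 was left out or libraries were scaled to one total, and its value in G2/WT was 0.49 (SE 0.10, adjusted p = 0.0019). MBNL2 made up 54.7% of the MBNL sum per kb in G2 (SD 1.61, n = 3), 46.1% in SCR (SD 1.76, n = 3) and 26.9% in WT (SD 0.519, n = 2). Per kb MBNL2 thus passed MBNL1 in G2 and was below it in both control lines. By normalized count MBNL1 was above MBNL2 in every library, so their order in G2 depends on the exon lengths used.

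**Figure D3:**
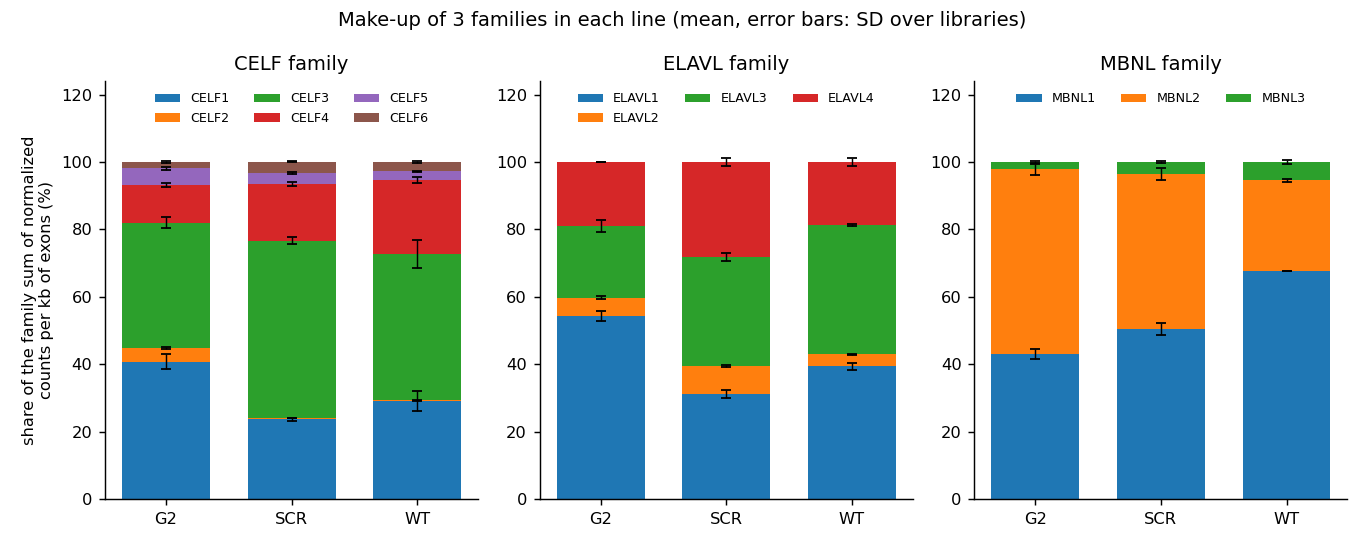
Share of each member in the summed normalized counts per kb of exons of its family (stacked bars, linear axis from 0; error bars, SD over the libraries of the line). From WT or SCR to G2 the share of ELAVL1 and CELF1 is larger. MBNL2 has the largest share of the MBNL sum per kb in G2 at 54.7%, which depends on the exon lengths used.

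QKI, a STAR-family protein that binds ACUAA motifs and is prominent in mesenchymal and glial cells, had 7272, 7431 and 7500 normalized counts in G2, 3296, 3831 and 3056 in SCR, and 3960 and 4397 in WT (chr6:163414643-163578592). It was higher in G2 than in SCR by 1.13 (SE 0.08, adjusted p = 1.9e-07) and than in WT by 0.83 (SE 0.09, adjusted p = 8.4e-06), and SCR and WT differed by -0.30 (SE 0.09, adjusted p = 0.018). KHDRBS3, which binds UAAA repeats and regulates neurexin exons in neurons, had 2382, 2558 and 2537 in G2, 1205, 1242 and 1136 in SCR, and 1140 and 1180 in WT. Its control lines overlapped (0.04, SE 0.07) and G2 was 2.09-fold above SCR and 2.15-fold above WT (1.06, SE 0.07, and 1.10, SE 0.07). KHDRBS1, its widely made relative, went the other way without reaching the fold minimum (-0.21, SE 0.05, and -0.43, SE 0.05). PTBP3 had 1797, 1826 and 1801 in G2, 1230, 1238 and 1039 in SCR, and 1050 and 1500 in WT, with 0.63 in G2/SCR (SE 0.12) and 0.53 in G2/WT (SE 0.13), and without SCR replicate 3 or with libraries scaled to one total it was not called.

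RBM24, which promotes muscle and heart exons, showed the largest G2/WT difference of the regulators with a mean of at least 100. Its gene (chr6:17281361-17293934) had 1141, 1163 and 1121 normalized counts in G2, 131, 217 and 85.4 in SCR, and 18.6 and 24.8 in WT. G2 was 8.44-fold above SCR (log2 fold change 3.08, SE 0.26, adjusted p = 1.1e-06) and 50.8-fold above WT (5.67, SE 0.29, adjusted p = 1.5e-08), and SCR was 6.01-fold above WT (2.59, SE 0.29, adjusted p = 4.7e-05). RBM20, another muscle and heart regulator, was not called in any comparison. It had 2047, 2017 and 1774 in G2, 2453, 2467 and 2288 in SCR, and 1829 and 1821 in WT, with -0.31 in G2/SCR (SE 0.07, adjusted p = 0.0032) and 0.09 in G2/WT (SE 0.08), so that SCR was the highest line. RBM47, known from epithelial cells, had 109, 122 and 133 in G2, 15.3, 13.1 and 10.6 in SCR, and 6.21 and 3.97 in WT. It was 8.79-fold higher in G2 than in SCR (3.14, SE 0.34, adjusted p = 9e-06), and no fold is given against WT, whose libraries were both at the floor of 9 recovered counts. CELF2, MBNL2, RBM24 and RBM47 had the same order of lines, G2 above SCR above WT, as the summed mesenchymal markers. QKI and MBNL1 did not, with -0.30 and -0.12 in SCR/WT, nor did RBM20. The marker sum was mostly VIM, which averaged 214430 in G2, 85197 in SCR and 59181 in WT. The part of these markers in the values of the regulators was not tested. Of 6 tested epithelial markers 1 was called higher and 2 lower in G2/SCR. The summed level of all 13 listed was 367 to 503 in G2, 434 to 457 in SCR and 432 to 437 in WT. Of the epithelial regulators ESRP1 and ESRP2, no library had more than 35.8 normalized counts. ESRP1 was called higher in G2/WT (1.24, SE 0.41, adjusted p = 0.023), but not without WT replicate 1 (0.93). It was also called higher in SCR/WT (0.94, SE 0.41, adjusted p = 0.096), a call lost under most alternatives. ESRP2 was not called.

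The promoters of the regulators called in the same direction in both G2 comparisons are shown to let the members be compared. Of the 104 tested regulators 86 matched an entry of the RefSeq promoter table (GRCh38.p14), and those printed have a mean of at least 100 and a window that reaches into the entry of the gene. Each runs 5′ to 3′ from 250 bases before to 50 bases after an annotated start. Which start these cells used was not tested, and that of CELF4 lies well inside its entry, whose 5′ end is at chr18:37565827. Capitals mark matches, on either strand, to the E-box CAGNTG, which proneural and myogenic basic helix-loop-helix factors bind, the AP-1 site TGANTCA of FOS and JUN proteins, and GGAATG, a site of the TEAD partners of YAP1. No match overlapped another. ELAVL3, QKI and KHDRBS3 had no entry, and the window of CELF2 lay outside its gene entry. CELF3, CELF4, CELF6 and SRRM4 were lower in G2, and MBNL2 and RBM24 were higher.
CELF3 (chr1:151716754-151717053, minus strand): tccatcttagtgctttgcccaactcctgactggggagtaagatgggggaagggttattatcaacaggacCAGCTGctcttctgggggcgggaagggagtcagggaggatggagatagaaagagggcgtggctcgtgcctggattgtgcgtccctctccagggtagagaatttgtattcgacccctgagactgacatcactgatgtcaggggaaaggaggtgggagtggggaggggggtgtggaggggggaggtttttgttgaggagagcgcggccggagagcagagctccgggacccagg
CELF4 (chr18:37485743-37486042, minus strand): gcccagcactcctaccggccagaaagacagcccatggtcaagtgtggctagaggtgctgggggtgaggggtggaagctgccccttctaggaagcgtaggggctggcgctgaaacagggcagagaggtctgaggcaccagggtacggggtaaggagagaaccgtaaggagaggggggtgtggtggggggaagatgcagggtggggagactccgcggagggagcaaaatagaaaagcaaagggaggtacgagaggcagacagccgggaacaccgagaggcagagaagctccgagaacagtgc
CELF6 (chr15:72320108-72320407, minus strand): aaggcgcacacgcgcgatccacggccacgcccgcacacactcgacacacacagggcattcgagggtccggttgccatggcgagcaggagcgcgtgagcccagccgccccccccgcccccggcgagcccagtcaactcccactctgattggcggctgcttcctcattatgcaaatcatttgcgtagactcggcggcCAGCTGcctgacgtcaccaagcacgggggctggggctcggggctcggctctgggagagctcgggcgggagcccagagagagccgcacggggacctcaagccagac
SRRM4 (chr12:118981291-118981590, plus strand): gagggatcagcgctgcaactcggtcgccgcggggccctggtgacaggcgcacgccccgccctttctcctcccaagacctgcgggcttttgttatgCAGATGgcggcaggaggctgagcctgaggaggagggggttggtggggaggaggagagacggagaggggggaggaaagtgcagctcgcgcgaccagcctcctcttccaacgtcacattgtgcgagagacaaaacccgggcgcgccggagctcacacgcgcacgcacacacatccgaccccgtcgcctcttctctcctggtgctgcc
MBNL2 (chr13:97141584-97141883, plus strand): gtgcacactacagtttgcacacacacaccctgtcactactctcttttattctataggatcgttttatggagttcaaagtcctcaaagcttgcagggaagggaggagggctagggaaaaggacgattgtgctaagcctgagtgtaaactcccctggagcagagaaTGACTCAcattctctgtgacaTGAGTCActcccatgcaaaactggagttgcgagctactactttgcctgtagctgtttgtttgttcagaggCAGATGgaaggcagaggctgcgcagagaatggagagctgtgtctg
RBM24 (chr6:17281814-17282113, plus strand): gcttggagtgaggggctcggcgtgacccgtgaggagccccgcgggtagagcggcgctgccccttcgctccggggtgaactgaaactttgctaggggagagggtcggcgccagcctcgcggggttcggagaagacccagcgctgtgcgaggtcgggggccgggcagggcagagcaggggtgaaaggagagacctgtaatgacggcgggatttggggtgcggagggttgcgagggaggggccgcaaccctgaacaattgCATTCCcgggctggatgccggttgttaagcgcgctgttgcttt

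An E-box began at base -181 in CELF3, -55 in CELF6 and -155 in SRRM4, counted from the start, and CELF4 had none. The MBNL2 window held AP-1 sites beginning at -86 and -65 and an E-box at 6, and that of RBM24 held the reverse complement of GGAATG at 8. E-boxes were in 5 of 7 windows of the regulators called lower in G2/SCR and in 3 of 6 of those called higher, beside 49.9% of all 35116 promoters of the table and 41.9% of the 86. AP-1 sites were in 0 of 7 and 1 of 6, beside 7.71%, and GGAATG in 1 of 7 and 2 of 6, beside 14.0%. With so few windows these counts are a description of the letters and no difference between the groups was tested.

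The SR proteins and hnRNPs gave a different picture, in which WT stood apart from both G2 and SCR. In G2/SCR no member of the 37 was called by limma, edgeR or DESeq2. At unadjusted p of at most 0.05 limma had 12 higher and 7 lower, edgeR 15 and 7 and DESeq2 15 and 8, and by the adjusted limma test 10 were higher and 6 lower, with a median of 0.03. In G2/WT 8 were called lower (5 without WT replicate 1), none higher, and 30 were lower by the adjusted test, with a median of -0.33. In SCR/WT none was called by limma, 31 were lower at unadjusted p of at most 0.05 and 29 were lower by the adjusted test (limma, Benjamini-Hochberg), with a median of -0.40. Both WT libraries lay above the other 6 for 30 of the 37, and for 27 of 32 when near-identical copies were left out, beside 17.2% of all genes above and 15.5% below. With libraries scaled to one total these numbers were smaller, with 19 lower by the adjusted test in G2/WT and 15 in SCR/WT, and WT outside the other libraries for 16 of the 37, above for 12 and below for 4. Over the 104 regulators they lay above for 48 and below for 8. The library medians of the 37, relative to the mean of each gene, were 0.28 in both WT libraries and between -0.14 and -0.05 in the other 6.

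**Figure D4:**
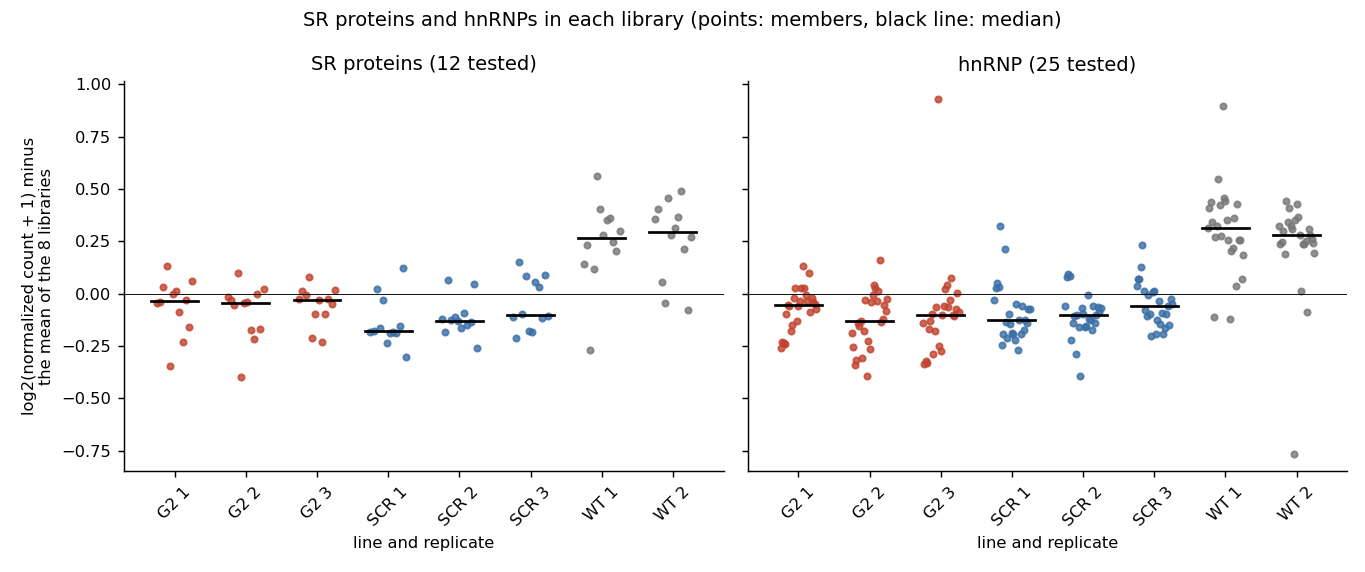
Level of each SR protein (left) and hnRNP (right) in each library as log2(normalized count + 1) minus its mean over the 8 libraries, with black lines at the medians. Most points of the WT libraries lie above 0 and those of the G2 and SCR libraries overlap around or below it.

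Strongly expressed genes in general shared this difference. Over the 1200 tested genes averaging 10000 normalized counts or more, the median was -0.27 in G2/WT and -0.26 in SCR/WT on the log2 scale, and the WT libraries lay above the others for 594 (49.5%). Of the 1200, 21.4% were called lower in G2/WT, and 58% were lower by the adjusted test. The 35 regulators at that level had medians of -0.34 and -0.39, and WT lay above for 31 of them. The WT libraries also held more ribosomal RNA and larger totals of normalized counts, whose part in this was not tested. With all libraries scaled to the same total, the median of all genes moved to 0.19 in G2/WT and 0.28 in SCR/WT. The SR protein and hnRNP medians moved to -0.14 and -0.12, which was -0.33 and -0.41 relative to the median of all genes. Such a scaling shifts all genes of a library alike, so this relative value is kept by construction and is no check of the difference. Of the 37, 1 rather than 8 was then called lower in G2/WT. SRSF2 kept its call, and HNRNPA1, HNRNPA1L2, HNRNPA1P10, HNRNPA3P1, HNRNPD, HNRNPDL and SRSF6 lost theirs. Under this scaling the split of called regulators changed to 12 higher and 7 lower in G2/WT and to 14 higher and 0 lower in SCR/WT. WT then lay above all others for 17 of the 104 and below for 28, and SCR above for 25 and below for 5 where it had been 11 and 19.

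Among SR proteins SRSF2, which binds exonic enhancers and controls its own mRNA through a poison exon, was the most abundant. It had 67416, 64920 and 74058 normalized counts in G2, 83951, 79194 and 90743 in SCR, and 126669 and 117454 in WT (chr17:76734115-76737411). The lines did not overlap, with -0.30 in G2/SCR (SE 0.07, adjusted p = 0.0026, under the fold minimum), -0.83 in G2/WT (SE 0.07, adjusted p = 1.9e-06) and -0.53 in SCR/WT (SE 0.07). SRSF6 had 3344, 3373 and 3663 in G2, 3439, 3531 and 4009 in SCR, and 5037 and 5501 in WT, and was called in G2/WT alone (-0.61, SE 0.08), though not without G2 replicate 1 (-0.58) or WT replicate 2 (-0.54). TRA2B, an SR-like activator of exons, averaged 8832 in G2 (SD 456, n = 3), 8417 in SCR (SD 296, n = 3) and 11633 in WT (SD 49.7, n = 2) and was not called. Per kb SRSF2 stood above every other SR protein in each line, at 23118 ± 1587 in G2, 28437 ± 1950 in SCR and 41015 ± 2190 in WT, and SRSF3 came next at 8210 ± 277, 7486 ± 266 and 10766 ± 658. SRRM1, a scaffold of splicing complexes, was not called, and SRRM5, with at most 62.1 normalized counts in a library, was called lower in G2/WT and SCR/WT.

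Among hnRNPs HNRNPA1, a repressor of exons with UAGG motifs, had 29244, 28706 and 27132 normalized counts in G2, 34986, 36250 and 35928 in SCR, and 45479 and 40433 in WT. G2 was the lowest and WT the highest, with -0.33 in G2/SCR (SE 0.06, adjusted p = 0.00033, under the fold minimum) and -0.60 in G2/WT (SE 0.06, adjusted p = 6.9e-06). This was so near the fold minimum that the call was lost with TMM scaling (-0.58) and without G2 replicate 3 (-0.57) or WT replicate 1 (-0.51). HNRNPA1L2 and HNRNPA1P10, near-identical copies, had -0.64 and -0.61 in G2/WT, and how reads were shared between HNRNPA1 and its copies is not given in the sources used here, so these entries are uncertain. HNRNPD, which binds AU-rich elements, averaged 20451 in G2 (SD 905, n = 3), 22427 in SCR (SD 1177, n = 3) and 31107 in WT (SD 1542, n = 2), and its relative HNRNPDL 22853 (SD 1996), 24617 (SD 1729) and 35426 (SD 255). Both were called in G2/WT (-0.61, SE 0.06, and -0.64, SE 0.08), HNRNPD not without G2 replicate 3 or WT replicate 1, and neither of them with libraries scaled to one total. HNRNPA2B1, the most abundant hnRNP by count, had -0.47 in G2/WT (SE 0.08) and 0.01 in G2/SCR (SE 0.07), and its entry overlaps that of CBX3, whose mean was 83.4% of its own. The copy HNRNPA3P1, with a mean below 100, was also called lower in G2/WT.

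Of the 35 tested RBM genes besides RBM24 and RBM47, RBM12B was called higher in G2/WT (0.83, SE 0.12, adjusted p = 8.1e-05), with 2176, 2005 and 2103 normalized counts in G2, 1386, 1498 and 1513 in SCR, and 996 and 1387 in WT. In G2/SCR its 0.52 (SE 0.10, adjusted p = 0.0014) was under the fold minimum. RBM28, a nucleolar protein linked to ribosome assembly, had 3497, 3319 and 3263 in G2, 3768, 4038 and 4279 in SCR, and 5758 and 5779 in WT, and fell by 0.78 on the log2 scale in G2/WT (SE 0.07, adjusted p = 1.5e-06). RBM3, a cold-inducible RNA-binding protein, had 7167, 7873 and 8475 in SCR against 13214 and 13141 in WT and was called lower in SCR/WT (-0.75, SE 0.09, adjusted p = 6.4e-05, and -0.48, not called, with libraries scaled to one total), with G2 between at 10641, 9046 and 8754. RBM8A, a core protein of the exon junction complex and the most abundant RBM gene, was not called and averaged 22746 in G2 (SD 944, n = 3), 22355 in SCR (SD 752, n = 3) and 27434 in WT (SD 13.0, n = 2).

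Some regulators known to shape neuronal splicing were not called. RBFOX2, which binds GCAUG, had 5131, 5285 and 5162 normalized counts in G2, 6009, 5437 and 5448 in SCR, and 4234 and 5153 in WT (-0.12 in G2/SCR, SE 0.07, and 0.15 in G2/WT, SE 0.08). Its entry overlaps an unnamed one with a mean of 13903. PTBP1, which represses neuronal exons, averaged 20476 in G2 (SD 573, n = 3) and 19737 in SCR (SD 863, n = 3), a difference of 0.05 (SE 0.05) that was not called. Its WT mean was 29381 (SD 758, n = 2), and the differences of -0.52 in G2/WT and -0.57 in SCR/WT were just under the fold minimum. PTBP2, the neuronal relative of PTBP1, named after its values were seen, was not called in any comparison (-0.08, SE 0.09, in G2/SCR), and it made up 2.11% of the PTBP sum per kb in G2, 2.38% in SCR and 1.76% in WT.

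Genes near each regulator were read beside it. The 20 nearest tested genes of RBM12B had log2 medians of 0.89 for G2/SCR and 0.81 for G2/WT, with 15 and 13 of 20 called higher, and the neighbours of ESRP1 on the same chromosome had 0.76 and 0.81. The entry of RBM12B also overlaps CIBAR1, which had 1.00 in G2/SCR. For KHDRBS3, farther along chromosome 8, the neighbours had medians of -0.16 and -0.10 while the gene itself had 1.06 and 1.10. The neighbours of CELF4 had 0.38 and 0.63, opposite in sign to CELF4. Around CELF2, RBM24, MBNL2 and ELAVL3 the medians in G2/SCR were -0.11, 0.27, 0.22 and -0.02.

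Other genes of the splicing machinery were counted from lists. Of all genes tested, 15.1% were called higher and 11.8% lower in G2/SCR, and 17.7% and 12.2% in G2/WT. By the adjusted test these shares were 25.7% and 23.4% in G2/SCR, and 27.2% and 25.4% in G2/WT. Of 11 tested kinases and import receptors of SR proteins (CLK and SRPK genes among them) none was called in G2/SCR or G2/WT by limma, nor in G2/SCR by edgeR or DESeq2. At unadjusted p of at most 0.05 limma had 4 in G2/SCR, and 5 against WT, where edgeR and DESeq2 were not run. Those tools had 6 each in G2/SCR, and by the adjusted limma test 1 was higher and 2 lower in each of G2/SCR and G2/WT. Of 16 genes of nonsense-mediated decay and the exon junction complex none was called in either, again by any of these tools, with 10 and 7 at unadjusted p of at most 0.05 in limma and 12 in G2/SCR in both others. By the adjusted limma test 5 were higher and 4 lower in G2/SCR and 1 and 6 in G2/WT. In SCR/WT limma called 1 gene lower in each of these lists, SRPK3 and MAGOHB. Of 49 other splicing and RNA-binding regulators 4 were called higher and 2 lower in G2/SCR, and 5 and 6 in G2/WT. The adjusted limma test had 5 of them higher and 12 lower in G2/SCR, and 5 and 27 in G2/WT. In SCR/WT it had 7 and 18, beside 17% and 18.3% of all genes. RBPMS, a regulator of smooth muscle splicing, had a mean of 1735 normalized counts in G2, 211 in SCR and 105 in WT (3.03 and 4.04). Its paralogue RBPMS2 had 1668, 923 and 1102 (0.85 and 0.60). PCBP3, a poly(C)-binding protein, was lower in G2, at 2253 against 4964 in SCR and 7243 in WT (-1.14 and -1.69).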

How the data were processed

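RNA-seq reads of polyadenylated RNA (Illumina stranded mRNA preparation, paired ends) were mapped to hg38 with STAR and counted on FAST DB genes with featureCounts, and the authors deposited the DESeq2-normalized counts, a signal in which the size factor of each library had been divided out. Values are not scaled to gene length. The strand setting and the treatment of multimapping reads are not given in the sources used here. Dividing by each library's step gave whole counts (tolerance 0.1) for 100% of values. The step of WT replicate 2 was too near 1 for this to be checked there.

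Limma 3.58.1 (R 4.3.3; lmFit, eBayes with trend) was fitted to log2(normalized count + 1) for 18947 genes averaging 10 or more, with a mean per line over all 8 libraries, and p-values were adjusted over all genes. This scale understates changes of low genes. The fit was tested on simulated data. edgeR 4.0.16 and DESeq2 1.42.0 were run on recovered counts of G2/SCR as alternatives, beside other pseudocounts, filters, scalings and fold minimums, a replicate block, and fits without each library. If a fragment gave several recovered counts, the p-values of edgeR and DESeq2 may be too small. The depth was 59804395 to 81080747 recovered counts, and floors cover counting error only. A gene was at the floor in a line when no library exceeded 9 recovered counts. Exon lengths came from GENCODE 44, whereas reads were counted on FAST DB genes. The order of family members per kb depends on these lengths, and which isoforms the cells used was not tested. Members named were those called with a mean of at least 100 and the most abundant of each family, and from other lists at most 3 genes called in both G2 comparisons. Members with fewer counts were named where few. RBM20, PTBP2, STMN2, TBX2, TH and TWIST1 fell outside this rule and were picked with their values known. The members and lists, the neuron-enriched set included, were chosen with earlier results of these data known, so their counts are descriptions. Splicing itself was not analysed here.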

Additional observations from a re-analysis of the deposited data

How the results depend on the processing

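The direction of all called values of named regulators was kept under every alternative run. Regulators called in G2/SCR numbered 13 to 24 and neuron-enriched ones called lower 7 to 10, against 16 and 8. A minimum fold of 2 left 10 in G2/WT, 5 in SCR/WT, 3 neuron-enriched ones lower in G2/WT and 0 SR proteins and hnRNPs lower, and left PRPF40B in G2/SCR (-0.95) uncalled. A minimum difference of 25% gave 50, 45, 8 and 20. Scaling to the same total gave 1 SR protein or hnRNP called lower in G2/WT, 19 and 15 lower at adjusted p of at most 0.05 in G2/WT and SCR/WT, 16 with WT outside the others, and medians of -0.0631, -0.14 and -0.12 in G2/SCR, G2/WT and SCR/WT. Leaving out 1 library gave 5 to 8 SR proteins and hnRNPs called lower in G2/WT (5 without WT replicate 1) and medians in SCR/WT of -0.42 to -0.37. Replicate numbers did not pair the libraries (correlations of deviations from -0.17 to 0.15). A replicate block gave 16, 22 and 9 calls in G2/SCR, G2/WT and SCR/WT and a median of -0.43 in SCR/WT. With it HNRNPA1 in G2/WT and CELF5 and ESRP1 in SCR/WT were not called, and with a block by the numbers in the column names HNRNPDL in G2/WT was not called either. With 2 WT libraries, differences from WT are the least precise.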
